A study of Mus musculus with 8 samples.

Results

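Sterols and sterol acids of the C27 skeleton, plant sterols, tocopherol and retinol were followed in mouse faeces as masses that fit their formulas. Members were the masses within 3 ppm of 31 neutral formulas: C27 compounds with 42, 44, 46 or 48 hydrogens and 1 to 6 oxygens, the sulfate C27H48O8S, and C28H48O, C29H48O, C29H50O, C29H50O2, C29H50O3 and C20H30O. Of the 31 formulas 23 were matched, by 28 of the 2429 masses of the deposited table. A mass gives a formula and not a structure, so each compound name below stands for every isomer of that formula. The samples were 4 faecal extracts of untreated mice and 4 of mice that had received 20 mg streptomycin, an antibiotic that stops bacterial protein synthesis, by oral gavage 24 h before collection. All mice were age-matched C57BL/6 females, an inbred laboratory strain. Extracts in acetonitrile were infused directly into an ion cyclotron resonance mass spectrometer, with no chromatography, and every sample was acquired 2 times. The value of a sample is the mean relative intensity of its 2 acquisitions, and the labels do not say what the intensity is relative to. Formulas ionise unequally, so intensities of different formulas are not amounts. Faeces were taken before and then after the dose, so drug and time of collection cannot be told apart. The labels do not tie sample numbers to mice or say that each sample is 1 mouse, so the p-values speak of the scatter of these 4 and 4 samples, part of which may be technical.

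The liver makes bile acids from cholesterol by adding hydroxyl groups to the rings and oxidising the end of the side chain, which gives C27 acids. Peroxisomes then cut the side chain, which gives the C24 bile acids that are joined to taurine or glycine and secreted. Gut bacteria remove the taurine or glycine, take off or oxidise hydroxyl groups, and reduce cholesterol to coprostanol. Plant sterols and tocopherols, the vitamin E family, come from the diet and are largely passed out with the faeces.

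The table as a whole listed 1210 to 1270 masses per untreated sample and 1633 to 1768 per streptomycin sample, with summed intensities of 19761 to 20140 and 21600 to 23221. The number of ions behind an intensity is unknown. Both calibrant masses, which came from a tuning mix spiked at a set amount, were higher in every streptomycin sample (180.4, 225, 179 and 187 at 621.0216 Da) than in any untreated sample (133, 153, 153 and 148). The median log2 difference over the 539 masses listed in all 8 samples was -0.41 as deposited, -0.57 on the total-intensity scale, -0.83 on the calibrant scale and -0.02 on the median-ratio scale. The scales divide each sample by its total, by its calibrants or by the median of its ratios to the average sample. Directions below are for the values as deposited, and a scale is named where it ended or made a call.

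Most of the C27 masses were lower after streptomycin, among them those with the formulas of the dihydroxy and trihydroxy C27 acids. The formula of a tetrahydroxy C27 acid, 3 of the 4 masses with 48 hydrogens and the formula of tocopherol quinone were higher. Among the 18 member masses listed in both groups, 9 fell, 5 rose and 4 did not pass (limma, adjusted p under 0.05 over all 2429 masses). Among all 633 masses of both groups 38.7% fell and 20.7% rose, so the split of the members did not lie far from that of the table. Of the other members 9 had values only without the drug and 1 only with it, 32.1% and 3.57% of the members. In the table as a whole these shares were 26.6% and 47.3%. Counted together, 18 members were called lower and 6 higher, where the table as a whole gave 36.7% and 52.7%, and masses at 0 in a whole group were called through the value put in for 0. For each of the 9 that fell and for 4 of the 5 that rose the groups did not overlap. Groups lay apart in this way for 39.7% (lower) and 20.1% (higher) of all masses of both groups. The split of 9 lower and 5 higher was 10 and 3 on the calibrant scale, 9 and 4 on the total-intensity scale, and 6 and 6 on the median-ratio scale. The median log2 change of the 18 was -0.31, against -0.47 for the 633. In both medians samples at 0 carry the value put in for 0, among the members 1 untreated sample each of C27H44O and C20H30O.

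**Figure D1:**
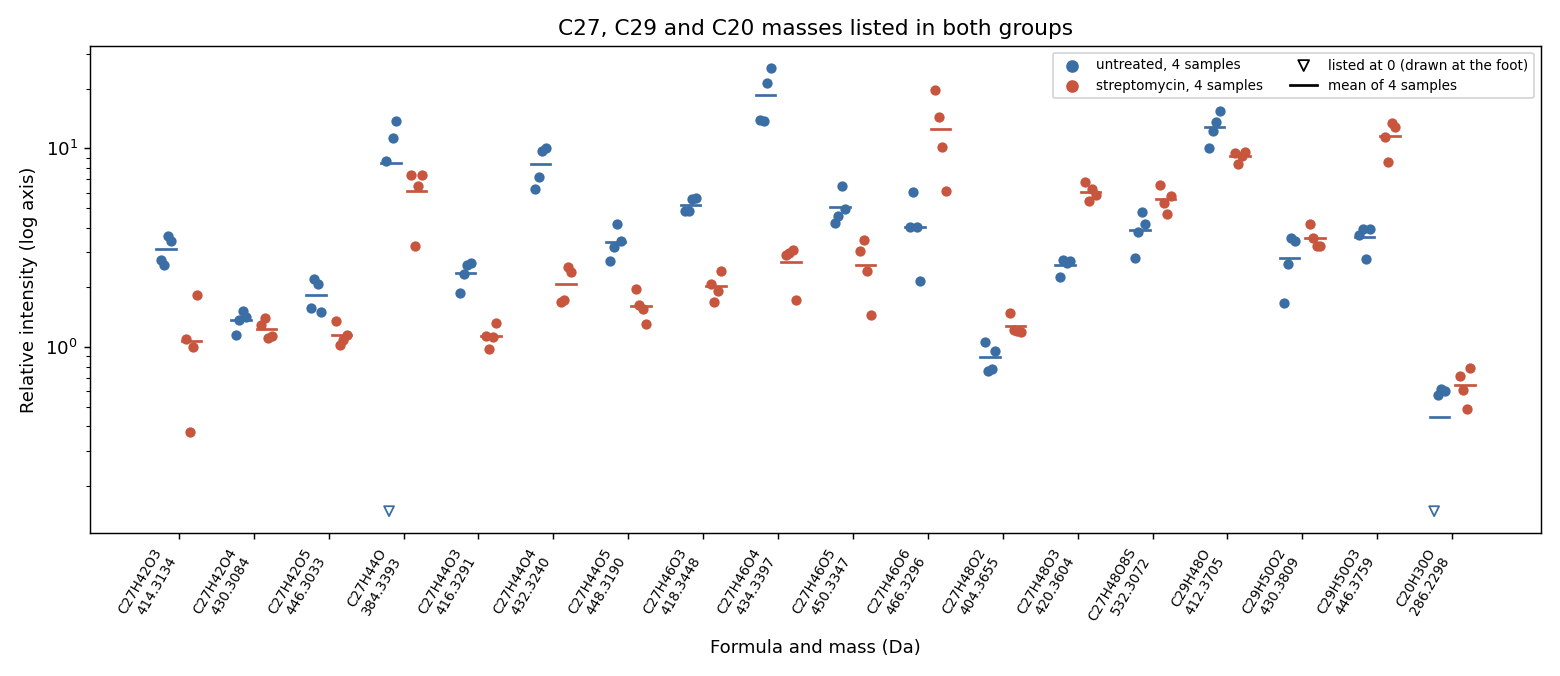
Relative intensity (log axis) of the 18 member masses listed in both groups, labelled by formula and mass. Points are the 4 samples of a group, bars their mean, and open triangles at the foot are samples listed at 0. The largest separation is at C27H46O4, where untreated samples lie at 13.7 to 25.4 and streptomycin samples at 1.73 to 3.08.

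The saturated C27 acids with 46 hydrogens are the formulas of the cholestanoic acids, intermediates formed before the side chain is cut. The formula of dihydroxycholestanoic acid, precursor of chenodeoxycholic acid, C27H46O4 at 434.3397 Da, had the highest intensity of any member in untreated samples. It stood at 13.98, 13.7, 21.3 and 25.4 in untreated samples 1 to 4 and at 2.92, 2.99, 3.08 and 1.73 in streptomycin samples 1 to 4. All streptomycin samples lay far below all untreated ones, a 6.93-fold fall of the mean (log2 change -2.78 ± 0.28 SE, limma adjusted p = 2.94e-05). With 1 oxygen less, C27H46O3 at 418.3448 Da, the formula of a monohydroxy acid or of a dihydroxy ketone of the early pathway, read 4.84, 4.84, 5.55 and 5.63 in untreated and 2.08, 1.69, 1.91 and 2.42 in streptomycin samples. Its groups were tight and well apart, 5.21 ± 0.435 against 2.03 ± 0.306 (SD, n = 4; log2 change -1.37 ± 0.13, limma adjusted p = 2.19e-05).

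Trihydroxycholestanoic acid, the precursor of cholic acid, has the formula C27H46O5. Its mass, 450.3347 Da, gave 4.22, 4.58, 6.47 and 4.98 without and 3.04, 3.48, 2.41 and 1.45 with the drug. The groups did not overlap, but the fall was smaller, 1.95-fold (limma adjusted p = 0.0121), and the call was lost on the median-ratio scale (limma adjusted p = 0.0917). The direction turned with the next oxygen. C27H46O6 at 466.3296 Da, the formula of a tetrahydroxy acid, read 4.00, 6.02, 4.02 and 2.15 in untreated samples and 19.6, 14.4, 10.1 and 6.10 in streptomycin samples. It rose 3.10-fold (log2 change 1.60 ± 0.43, limma adjusted p = 0.0101), although the lowest streptomycin sample, 6.10, was only just above the highest untreated one, 6.02.

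Formulas with 44 hydrogens have 1 more ring or double bond, as in cholestenoic acids and in oxo forms of the acids above. Of 6 such masses 3 of both groups fell, 2 had values only without the drug, and 1 did not pass. In the table as a whole 38.7% of the masses of both groups fell, and 26.6% of all masses had values only without the drug. C27H44O4, the formula of dihydroxycholestenoic acid, had its more intense mass at 432.3240 Da, at 6.26, 7.21, 9.74 and 10.1 in untreated and 1.70, 1.73, 2.53 and 2.39 in streptomycin samples. It fell 3.99-fold, with every streptomycin sample far below every untreated one (limma adjusted p = 4.75e-05). Its second mass, listed at the same 432.3240 Da, was found in untreated samples only, at 3.41, 7.88, 6.57 and 2.80. It was listed in only 6 untreated acquisitions, and each missing acquisition counted as 0 in the mean of its sample.

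C27H44O3, the formula of hydroxycholestenoic acid and of the vitamin D hormone calcitriol, went from 1.88, 2.33, 2.60 and 2.66 to 1.14, 0.977, 1.13 and 1.33 at 416.3291 Da. C27H44O5 at 448.3190 Da, the formula of trihydroxycholestenoic acid, went from 2.71, 3.18, 4.16 and 3.43 to 1.96, 1.63, 1.55 and 1.31. Both fell to about the same extent, by 2.07 and 2.09 times (log2 changes -1.05 ± 0.15 and -1.06 ± 0.17, limma adjusted p = 0.000261 and 0.000617), and for neither did the groups overlap. The most oxidised of the row, C27H44O6 at 464.3139 Da, also the formula of the insect hormone ecdysone that some plants make, read 1.56, 2.49, 1.89 and 1.36 without the drug and 0 in every sample with it.

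C27H44O at 384.3393 Da is the formula of cholestenone, an intermediate of bacterial cholesterol reduction, and of dehydrocholesterol, desmosterol and cholecalciferol. It was at 8.60, 0, 11.3 and 13.8 in untreated and 7.35, 3.25, 6.45 and 7.31 in streptomycin samples. Only 7 streptomycin acquisitions listed it, and the missing acquisition counted as 0 in the mean of its sample. Untreated sample 2 was listed at 0 while the other 3 were all above every streptomycin sample, so no fold is given. With the value put in for 0 the mass did not pass (limma adjusted p = 0.625). Without untreated sample 2 it was lower (log2 change -0.93, limma adjusted p = 0.0403).

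With 42 hydrogens, the formulas with at least 3 oxygens fit oxo-cholestenoic acids and plant spirostane sapogenins. The liver makes such acids on the acidic pathway, which starts with side-chain oxidation. C27H42O and C27H42O2 have too few oxygens for these acids. Of 10 masses of 6 formulas, 6 had values only without the drug, 2 of both groups fell, 1 did not pass and 1 had values only with it. Of all masses 26.6% had values only without the drug and 47.3% only with it, and 38.7% of those of both groups fell. C27H42O at 382.3236 Da read 7.24, 9.22, 8.75 and 9.98 in the untreated samples. The more intense mass of C27H42O3, the formula of oxo-cholestenoic acid and of diosgenin, was at 9.84, 11.2, 11.5 and 10.5 at 414.3134 Da. C27H42O4 at 430.3083 Da, the formula of hydroxy-oxo-cholestenoic acid, was at 5.05, 6.19, 5.70 and 4.99. All 3 were present in every untreated sample and in no streptomycin sample. C27H42O2 had 2 masses that were 0 in every streptomycin sample, at 0, 9.43, 10.3 and 12.2 (398.3185 Da) and 8.01, 4.53, 5.70 and 5.73 (398.3186 Da). C27H42O6 at 462.2982 Da was weaker and also 0 in every streptomycin sample, at 0, 1.19, 1.009 and 0.855 in the untreated ones. Untreated sample 1 was at 0 here and for the first mass of C27H42O2.

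**Figure D2:**
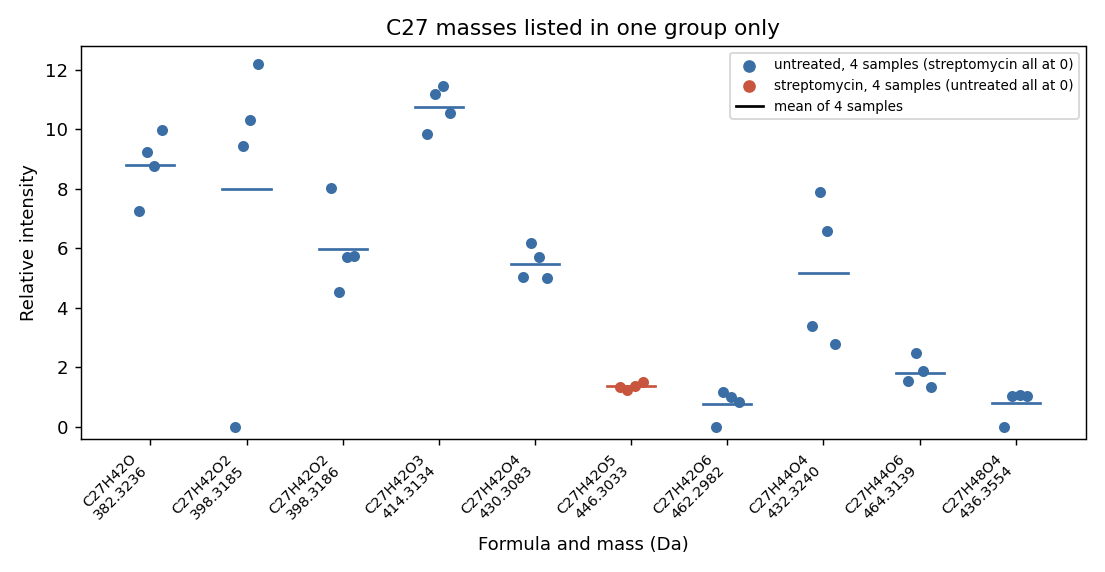
Relative intensity of the 10 member masses listed in one group only, in the 4 samples of that group, with the mean as a bar. Untreated sample 1 is at 0 for C27H42O2 at 398.3185 Da, C27H42O6 and C27H48O4, and C27H42O5 is the one mass of streptomycin samples, at 1.23 to 1.52.

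The weaker masses of these formulas did not all follow the stronger ones. The second mass of C27H42O3, at the same 414.3134 Da, was at 2.76, 2.60, 3.65 and 3.41 and 1.10, 0.376, 1.005 and 1.83, a 2.89-fold fall (limma adjusted p = 0.00829), which did not pass in the second acquisition alone (limma adjusted p = 0.0525). Only 7 streptomycin acquisitions listed this mass, and the missing acquisition counted as 0 in the mean of its sample. The second mass of C27H42O4, at 430.3084 Da, did not pass, at 1.15, 1.37, 1.52 and 1.42 against 1.29, 1.41, 1.12 and 1.13 (log2 change -0.14 ± 0.13, limma adjusted p = 0.311), and was lower on the calibrant scale (limma adjusted p = 0.00148). C27H42O5 stood on 2 lines of 446.3033 Da. One was at 1.58, 2.20, 2.08 and 1.51 and 1.35, 1.03, 1.08 and 1.15, a fall of 1.59-fold that did not pass on the median-ratio scale (limma adjusted p = 0.117). The other was listed at 0 in all untreated samples and at 1.34, 1.23, 1.38 and 1.52 in streptomycin samples. The table does not say why a formula can stand on 2 lines or from which ion mode a line comes.

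Formulas with 48 hydrogens have only the rings of the sterol skeleton, as in bile alcohols, which are stopped before the side-chain acid is formed. All 3 of these masses with values in both groups rose, and 1 had values only without the drug. In the table as a whole 20.7% of the masses of both groups rose, and 26.6% of all masses had values only without the drug. Cholestanetriol, C27H48O3 at 420.3604 Da, was at 2.25, 2.76, 2.64 and 2.73 in untreated and 6.76, 5.44, 6.22 and 5.84 in streptomycin samples. It was the clearest rise of the C27 members, 2.34-fold with groups far apart (log2 change 1.23 ± 0.11, limma adjusted p = 1.46e-05). Cholestanediol, C27H48O2 at 404.3655 Da, was at 1.06, 0.758, 0.780 and 0.956 and 1.49, 1.22, 1.21 and 1.19, a smaller rise of 1.44-fold without overlap that did not pass on the calibrant scale (limma adjusted p = 0.619). The bile alcohol sulfate C27H48O8S at 532.3072 Da, a pentahydroxy sterol with 1 sulfate, was at 2.83, 3.80, 4.77 and 4.16 and 6.54, 5.33, 4.70 and 5.74. Its groups overlapped, with untreated sample 3 above streptomycin sample 3. It passed as deposited (log2 change 0.54 ± 0.18, limma adjusted p = 0.0243), but not on the calibrant and total-intensity scales (limma adjusted p = 0.531 and 0.0816), nor without untreated sample 2, streptomycin sample 1 or streptomycin sample 4 (limma adjusted p = 0.0514, 0.0620 and 0.0514). Cholestanetetrol, C27H48O4 at 436.3554 Da, went the other way, at 0, 1.06, 1.09 and 1.05 without the drug and 0 with it.

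**Figure D3:**
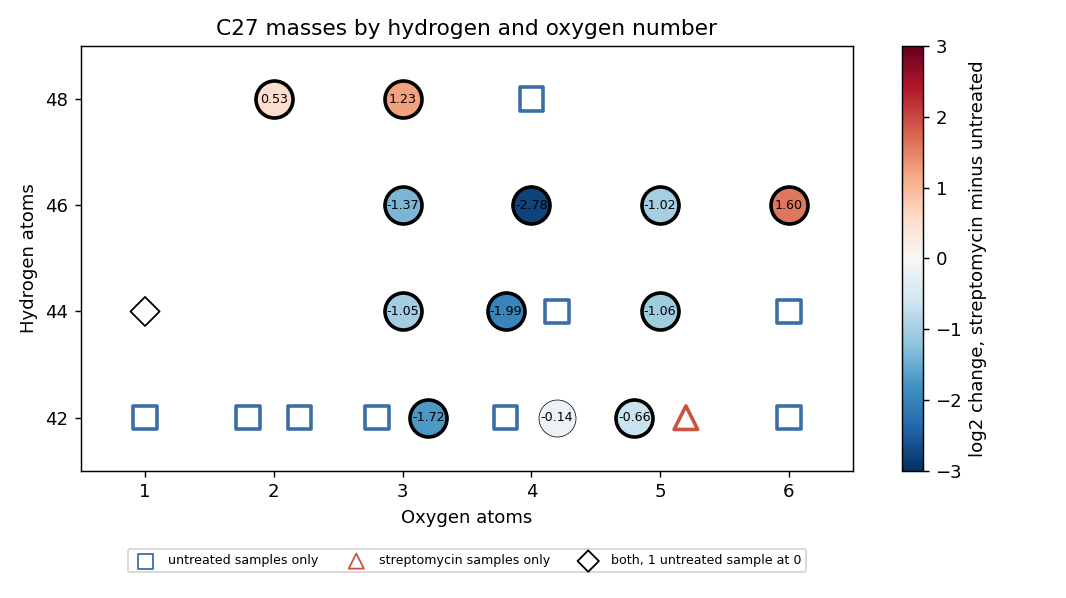
The C27 masses with 1 to 6 oxygens, placed by oxygen number (horizontal) and hydrogen number (vertical). Filled circles carry the log2 change, streptomycin minus untreated, of masses listed in all 8 samples, with a thick edge where limma's adjusted p was under 0.05; squares and the triangle are masses of one group only, and the diamond is C27H44O, with untreated sample 2 at 0. The circles are blue (lower) except for C27H48O2, C27H48O3 and C27H46O6, at 0.53, 1.23 and 1.60, and the near-white -0.14.

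Summed over the 20 masses with 42, 44 or 46 hydrogens, intensity was 87.1, 100.1, 124 and 123 in untreated and 44.9, 34.2, 33.8 and 29.7 in streptomycin samples, or 0.545% and 0.160% of a sample's summed intensity on average. Over the 4 masses with 48 hydrogens it was 6.14, 8.37, 9.28 and 8.89 and 14.8, 12.0, 12.1 and 12.8. The first sum was lower in all 4 streptomycin samples than in any untreated sample and the second was higher, and no test was made on these sums, which add masses of unequal ionisation.

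Of the sterol formulas with 1 oxygen, cholesterol (C27H46O), coprostanol (C27H48O), campesterol (C28H48O) and sitosterol (C29H50O) had no mass within 3 ppm, nor did C27H44O2, C27H46O2, C27H48O5 and C27H48O6. Neutral sterols take up a charge poorly in electrospray, so their absence from the table gives no level. Stigmasterol, a plant sterol, C29H48O at 412.3705 Da, was at 10.1, 12.2, 13.6 and 15.5 in untreated and 9.50, 8.38, 9.20 and 9.64 in streptomycin samples. It fell 1.40-fold without overlap (limma adjusted p = 0.0155), but on the median-ratio scale the difference was close to 0 (log2 change -0.08, limma adjusted p = 0.632). An ion of C29H50O2 that had lost water would fall on the same mass.

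Alpha-tocopherol, the main vitamin E form of animal tissue, has the formula C29H50O2. Its mass, 430.3809 Da, was at 1.67, 2.62, 3.56 and 3.43 and 4.16, 3.54, 3.23 and 3.23, with overlapping groups, and did not pass (log2 change 0.38 ± 0.25, limma adjusted p = 0.182), though it was higher on the median-ratio scale (limma adjusted p = 0.0250). Its 2 acquisitions differed by a median of 15.3%, against 3.30% for the median member. The oxidised form, tocopherol quinone, C29H50O3 at 446.3759 Da, was at 3.68, 3.96, 2.77 and 3.94 in untreated and 11.5, 8.52, 13.4 and 12.8 in streptomycin samples. Every streptomycin sample was at more than 2 times the highest untreated sample, and the mean rose 3.22-fold (log2 change 1.68 ± 0.19, limma adjusted p = 5.46e-05). A mass 1 water below it, 428.3654 Da, was far more intense, at 129, 142, 169.5 and 162 and 221, 197, 177 and 201. It rose (log2 change 0.41, limma adjusted p = 0.0155) but did not pass on the calibrant and total-intensity scales (limma adjusted p = 0.935 and 0.0902). Retinol, vitamin A, C20H30O at 286.2298 Da, was close to the lowest values of the table, at 0, 0.573, 0.620 and 0.601 and 0.713, 0.607, 0.488 and 0.787. Its groups overlapped and it did not pass (limma adjusted p = 0.275).

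How strongly related formulas differed was asked with ratios of 2 masses within each sample, which a common scale factor of the sample cannot change. All pairs of the same carbon number that differ by 1 oxygen or by 2 hydrogens and are listed in all 8 samples were compared, with 2 pairs of a C27 and a C24 acid formula, 18 in all. Of these, 15 changed (exact two-sided permutation tests, each at the smallest p that 4 against 4 samples allow, 0.0286, adjusted p = 0.0343 over the 18 pairs), 9 of 9 that differ by 1 oxygen, 4 of 7 that differ by 2 hydrogens and both C24 pairs. Pairs that share a mass are not independent. Each difference is that of the log2 changes of its 2 masses, so the ratios are not separate evidence. Pairs of other masses of the table were not compared, so the count of 15 has no share beside it. Among all single masses of both groups 38.7% fell and 20.7% rose. With any 1 sample left out, 8 of the 15 kept the call and none of the 15 changed sign. The other 7 lost it (exact permutation adjusted p up to 0.103). They were C27H42O4 to C27H42O3, C27H44O5 to C27H44O4, C27H46O4 to C27H44O4 and C27H46O5 to C24H40O5 without any 1 untreated sample, C27H42O5 to C27H42O4 and C29H50O3 to C29H50O2 without any 1 streptomycin sample, and C27H48O3 to C27H48O2 without streptomycin sample 1, 3 or 4. If the authors scaled the ion modes apart, a ratio between modes keeps that factor.

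A further ring hydroxyl tells the cholic acid branch from the chenodeoxycholic acid branch, and C27H46O5 has 1 oxygen more than C27H46O4. The log2 ratio of C27H46O5 to C27H46O4 was -1.73, -1.58, -1.72 and -2.35 in untreated and 0.06, 0.22, -0.35 and -0.25 in streptomycin samples. It was well below 0 in all untreated samples and near 0 in all streptomycin samples, a difference of 1.76 (interval 1.22 to 2.57), the interval being the range of the 16 differences between single samples, an exact 97.1% interval. The next oxygen gave a change of the same sign. The log2 ratio of C27H46O6 to C27H46O5 was -0.08, 0.39, -0.69 and -1.21 without and 2.69, 2.04, 2.07 and 2.07 with the drug, a difference of 2.61 (interval 1.65 to 3.90). One oxygen lower the sign was opposite, with -1.41 (interval -2.65 to -0.68) for C27H46O4 to C27H46O3. C27H46O4 thus fell relative to the formulas on both sides of it. The same signs were found with 44 hydrogens, where C27H44O4 changed relative to C27H44O3 by -0.94 (interval -1.35 to -0.46), and C27H44O5 relative to C27H44O4 by 0.93 (interval 0.32 to 1.77). With 42 hydrogens the order of the masses used was not the same. The differences were 1.58 (interval 0.23 to 3.17) for C27H42O4 to C27H42O3 and -0.52 (interval -1.13 to -0.02) for C27H42O5 to C27H42O4. C27H42O3 and C27H42O4 entered by their weaker mass, since the stronger was at 0 in every streptomycin sample. For C27H42O5 the mass that fell was used, and the mass at 0 in every untreated sample was left out. These signs are therefore of single masses and not of the whole formulas. The C27H42O3 mass used was missing from a streptomycin acquisition, which counted as 0. The remaining oxygen pairs rose, by 0.70 (interval 0.29 to 1.29) for C27H48O3 to C27H48O2 and by 1.30 (interval 0.12 to 2.42) for tocopherol quinone to tocopherol.

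**Figure D4:**
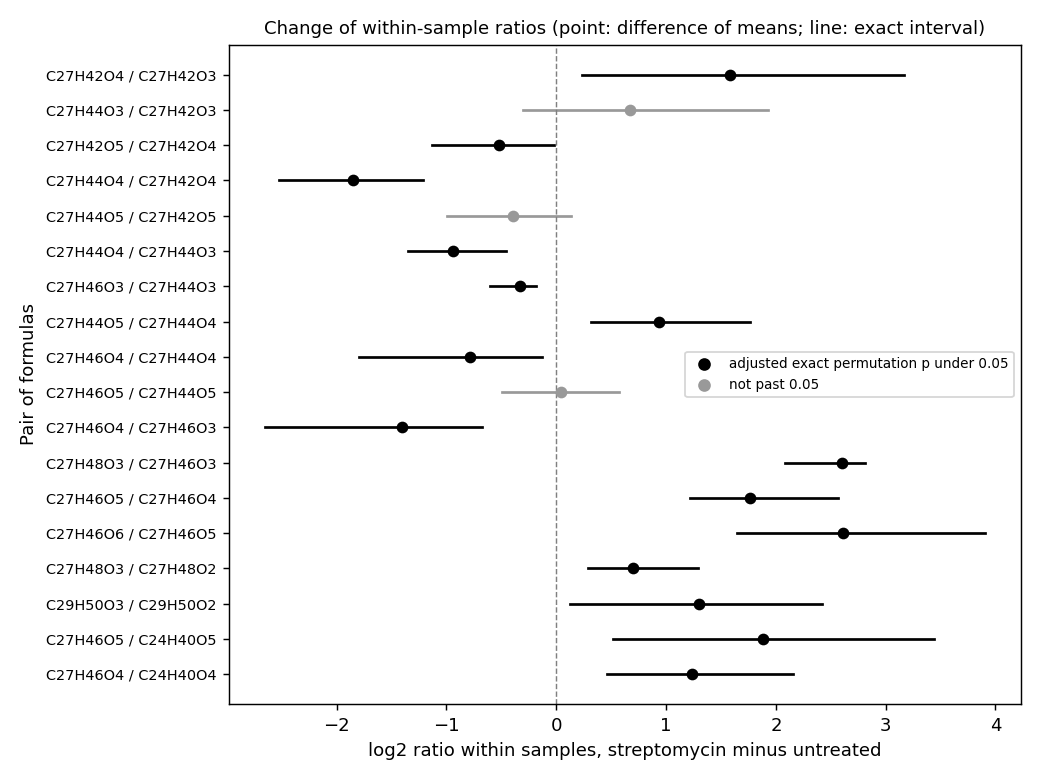
Difference between groups of the within-sample log2 ratio for the 18 pairs of formulas (point, difference of the 2 group means; line, range of the 16 differences between single samples). Black pairs have an adjusted exact permutation p of 0.0343, and the 3 grey lines cross 0. The largest shifts are C27H46O6 to C27H46O5, at 2.61, and C27H48O3 to C27H46O3, at 2.60.

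Of pairs that differ by 2 hydrogens, the alcohol C27H48O3 rose most against its partner with 46 hydrogens. The log2 ratio to C27H46O3 was -1.11, -0.81, -1.07 and -1.05 in untreated and 1.70, 1.69, 1.70 and 1.27 in streptomycin samples, a difference of 2.60 (interval 2.08 to 2.81). The mass with more hydrogens fell relative to its partner for C27H44O4 to C27H42O4, C27H46O4 to C27H44O4 and C27H46O3 to C27H44O3. The differences were -1.85 (interval -2.53 to -1.21), -0.79 (interval -1.80 to -0.13) and -0.33 (interval -0.60 to -0.19). For C27H44O4 and the formulas with 42 hydrogens, only the mass listed in all 8 samples entered. The other mass of each, at 0 in a whole group, was left out. For C27H42O4 the mass left out, 430.3083 Da, was the more intense in untreated samples. Pairs with these formulas therefore compare single masses and do not give the change of the whole formula. The 3 pairs not named so far did not pass. For C27H46O5 to C27H44O5 the difference was 0.04 (interval -0.50 to 0.57), exact permutation adjusted p = 0.771. For C27H44O3 to C27H42O3 and C27H44O5 to C27H42O5 it was 0.68 (interval -0.30 to 1.93) and -0.40 (interval -0.996 to 0.13), both with exact permutation adjusted p = 0.0908. These intervals leave room for changes of either sign.

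Both C27 formulas fell less than the more intense mass of the C24 formula each was paired with. Each C24 formula covers several acids, so these are not ratios of a precursor to its own product. The log2 ratio of C27H46O4 to C24H40O4, the formula of chenodeoxycholic and deoxycholic acid (392.2928 Da), was -4.56, -4.33, -3.85 and -3.84 in untreated samples and lay between -3.38 and -2.40 in streptomycin samples. That of C27H46O5 to C24H40O5, the formula of cholic and muricholic acids (408.2873 Da), was -7.87, -8.68, -8.30 and -8.43 and -5.95, -5.25, -7.22 and -7.36. The C24 acids were far more intense in both groups, and the ratios rose by 1.24 (interval 0.46 to 2.16) and 1.88 (interval 0.51 to 3.44).

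Beyond the members, 17 formulas of the surrounding pathways were looked up, and 13 were matched by 16 masses, of which 6 were lower, 9 higher and 1 did not pass. These shares lay near those of all 2429 masses, of which 36.7% were called lower and 52.7% higher. The taurine conjugates of the C27 acids were listed in streptomycin samples only, as were 47.3% of all masses. Tauro-trihydroxycholestanoic acid, C29H51NO7S at 557.3388 Da, was at 3.56, 2.89, 2.16 and 2.07, and tauro-dihydroxycholestanoic acid, C29H51NO6S at 541.3438 Da, at 1.69, 1.69, 1.54 and 1.45. The free formula of each C27 acid was lower and its taurine-bound formula higher. For the C24 acids, the more intense mass of C24H40O5 and C24H40O4 were lower too. The second mass of C24H40O5, 408.2876 Da, did not pass (log2 change -0.71, limma adjusted p = 0.165). The taurine conjugates C26H45NO7S and C26H45NO6S (515.2919 and 499.2969 Da) stood at 0.718, 0.563, 0.311 and 0 and at 0 in untreated samples. In streptomycin samples they stood at 17.2, 16.2, 13.6 and 15.3 and 37.6, 31.9, 25.9 and 13.4. Only 7 streptomycin acquisitions listed the 499.2969 Da mass, and the missing acquisition counted as 0. Cholesterol sulfate, C27H46O4S at 466.3118 Da, went from 11.7, 15.6, 11.7 and 10.2 to 28.4, 16.05, 27.5 and 27.8, and gamma-tocopherol, C28H48O2 at 416.3654 Da, from 2.86, 3.79, 4.08 and 3.99 to 5.78, 6.49, 5.59 and 5.39. Both rose (limma adjusted p = 0.00387 and 0.00233), as did C30H50O, the formula of lanosterol and of plant triterpenols (adjusted p = 0.00390), and none of the 3 passed on the calibrant scale. Formulas of fungal and plant sterols fell: C28H44O, the formula of ergosterol, from 4.78 ± 0.672 to 2.35 ± 0.0863, and C28H46O, from 5.57 ± 0.976 to 3.88 ± 0.212 (SD, 4 samples per group). The second did not pass on the median-ratio scale (limma adjusted p = 0.491).

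Rows at the spacing of other ion forms lay beside most members. All 28 masses lay within 0.470 ppm of their formula, and no member had a row 1 proton away. No member listed in every sample had a row of equal intensity in all samples at any spacing looked up. For members with a sample at 0 this comparison could not find an equal row. Of the 28 members 24 had a row 1 water lighter or heavier, often another member, and an ion that had lost water would fall on such a row. For 7 members a lighter row matched the exchange of a sodium by a hydrogen. That of C27H46O4, 412.3577 Da, was at 4.30, 5.04, 4.96 and 4.92 in untreated and 1.63, 1.70, 1.74 and 2.44 in streptomycin samples. It fell with its member, as did that of C27H46O3, 396.3628 Da. The row of C27H48O2, 382.3834 Da, fell from a mean of 24.8 to 2.51 while its member rose. That of C27H44O5, 426.3370 Da, had values only with the drug while its member fell. The remaining rows were at 0 in every streptomycin sample, and their members were lower. For the mass of C27H42O5 with values only in streptomycin samples and for C27H48O4 a row at the spacing of water or of potassium for sodium, 428.2928 and 452.3294 Da, was listed only in the group in which the member was at 0. That mass of C27H42O5 and C27H44O6 also lie 1 water apart, and each had values only in the group where the other was at 0. Their part in the results was not tested.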

How the data were processed

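Per the labels, acetonitrile extracts were measured over m/z 150 to 1100 in both ion modes, with a mass accuracy within 2 ppm. The authors deposited relative intensity, linear, for each neutral mass in each acquisition. How peaks were picked and aligned and the ion modes joined is not stated in the labels. The value of a sample was the mean of its 2 acquisitions, with 0 for an acquisition without the mass. For log2, a value of 0 was replaced by 0.0738, the lowest sample value of the table. Masses within 3 ppm of a formula were members. All 2429 masses were fitted with lmFit and eBayes of limma 3.58.1 in R 4.3.3, 4 untreated against 4 streptomycin samples without a block, with Benjamini-Hochberg adjustment over all masses and a threshold of 0.05. The fit was tested on simulated data. Ratios were tested by exact two-sided permutation over 70 assignments. Other ion forms were rows within 1 ppm of a spacing. The rule named every member, sample by sample where listed in both groups or at a mean of at least 1, and a fixed set of neighbouring formulas. Members, lists and pairs were chosen with earlier results of these data known. Alternatives were other values for 0, filters, scales, an intensity trend, a t-test, a replicate block, single acquisitions, tolerances of 1, 2 and 5 ppm, the nearest row, and leaving out each sample. Python 3.11.15, numpy 2.4.6, pandas 2.3.3 and matplotlib 3.10.9 were used.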

Additional observations from a re-analysis of the deposited data

Results flagged for a closer look

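In 11 of 124 groups of 4 samples, over member masses, neighbouring formulas and within-sample ratios, 1 sample stood far from the other 3. Chance alone flags about 1 in 20 groups. Groups at 0 in all 4 samples cannot be flagged and the ratios reuse the same masses, so the rates cannot be compared directly. For C27H46O4 streptomycin sample 4, at 1.73, was below the others, and for C27H48O2 streptomycin sample 1, at 1.49, was above them. Untreated sample 1 was at 0 for C27H48O4 and for C20H30O, where the other 3 were close together. The second mass of C24H40O5 was at 19.8 in untreated sample 2, and cholesterol sulfate at 16.05 in streptomycin sample 2. Among log2 ratios, untreated sample 2 stood apart at -0.92 for C27H42O4 to C27H42O3, untreated sample 1 at 1.36 for C27H46O3 to C27H44O3, and untreated sample 4 at -1.55 for C27H44O5 to C27H44O4. Streptomycin sample 4 stood apart at 1.27 for C27H48O3 to C27H46O3, and streptomycin sample 1 at 2.69 for C27H46O6 to C27H46O5.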

How the results depend on the processing

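Of 358 values of single masses under alternatives, 344 kept their side of the threshold, 11 lost the call, 2 gained one and 1 reversed, C27H44O without untreated sample 2 (log2 change -0.93). Without each other sample in turn C27H44O lay at up to 1.59. Of the 9 lower and 5 higher calls among members of both groups, 9 and 3 were kept on the calibrant scale, with 3 higher in all, and 6 and 5 on the median-ratio scale. With only the 539 masses listed in all 8 samples, the 18 lower members became 9, since masses of one group drop out. Leaving out each sample gave 18 to 19 lower and 5 to 6 higher members, 9 to 10 and 4 to 5 among those of both groups, and 11 to 13 of the 18 pairs. The methods' t-test gave 18 lower and 6 higher both at its own unadjusted threshold and after Benjamini-Hochberg adjustment. Same-numbered samples correlated by 0.0301 to 0.124 in their deviations from the group means, and 2 of 4 untreated samples correlated best with their own number. Correlations this weak cannot decide whether same numbers are the same mouse. The labels do not tie numbers to mice, so the main fit did not take the numbers as pairs. With the replicate block limma called 18 lower and 5 higher members, C27H48O8S being lost (adjusted p = 0.0837). The row 1 water below C29H50O3, 428.3654 Da, was lost too (limma adjusted p = 0.0672). Sign-flip tests of the 18 ratios with the replicate block called 0, as 4 pairs cannot give a permutation p below 0.125, adjusted or not. The lowest single acquisition, 0.148, in place of 0 was added after seeing the data and left all counts as they were. Relative intensities without ion counts limit what low masses can show.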

Other observations

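Rows that stand 1 sulfate (SO3) above a member were looked up after the values of the members had been seen. Sulfation is a route by which liver and other tissues make sterols and bile acids more soluble for excretion. There were 13 such rows, above 13 member formulas: 10 were higher after streptomycin, 6 of them listed in both groups and 4 in streptomycin samples only, and 3 were listed in untreated samples only. The row 1 sulfate above C27H46O5, 530.2914 Da, was at 3.08, 3.24, 4.00 and 3.35 in untreated and 14.7, 12.0, 9.13 and 10.4 in streptomycin samples (log2 change 1.74 ± 0.17 SE, limma adjusted p = 2.22e-05), while the free formula fell. The rows above C27H44O5 and C27H44O4, 528.2758 Da and 512.2809 Da, went from 6.57, 5.67, 6.79 and 6.14 to 19.8, 23.5, 13.4 and 13.2 and from 5.15, 5.55, 5.13 and 4.44 to 13.4, 11.5, 8.97 and 9.49, where the free formulas also fell. The row above C27H44O6, 544.2709 Da, was at 1.44, 1.74, 1.56 and 1.53 and 3.78, 4.15, 2.76 and 3.23. These 4 passed on every scale tried and with the replicate block, whereas the rows above C27H44O3 and C27H42O5, 496.2859 Da and 526.2603 Da, did not pass on the calibrant scale.

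The row above C27H46O6, 546.2865 Da, and the row above the bile alcohol sulfate C27H48O8S, 612.2640 Da, which has the formula of a disulfate, were at 3.12, 3.53, 2.30 and 2.73 and at 9.34, 8.37, 6.63 and 6.40 with the drug and 0 without it. The rows above C27H42O6 and C29H50O3 were also listed in streptomycin samples only, at 0.782 to 1.04 and at 0 to 0.701. The rows above C27H48O4, C27H46O3 and C27H42O4, 516.3124 Da, 498.3017 Da and 510.2653 Da, were listed in untreated samples only, at 2.61, 3.49, 3.68 and 3.44, 0, 2.85, 2.49 and 2.33 and 1.17, 1.46, 1.33 and 1.40. Of all 2429 masses, 52.7% were called higher, 47.3% were listed in streptomycin samples only and 26.6% in untreated samples only. Among masses of both groups 20.7% were called higher. A formula with a sulfate added is not an identification, and no test was made on the set.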
